A study of Mus musculus with 4 samples.

Results

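Integrins and basement membrane components were measured in mouse embryonic stem cells (day 0) and in the epiblast-like tissue that the cells form by day 3 of SFEBq, a serum-free floating culture in which dissociated stem cells quickly re-aggregate. The members were taken by gene symbol from the platform annotation: integrin alpha and beta chains, laminin chains, type IV collagen chains, nidogens, Sparc, Fn1, Vtn, Agrn and Dag1. This gave 47 of the 18194 genes on the arrays, 22 of them matrix components and 25 receptors. Where a gene had several probe sets, the brightest on average across the 4 arrays stood for it. Total RNA was hybridised to Affymetrix arrays from 2 samples at day 3 and 2 samples at day 0. The labels named no cell line, strain or genetic change for either day, and they did not say whether the 2 samples of a day were separate cultures. The p-values therefore cover no more than the variation among these 4 samples, and part or all of that could be technical. The 2 days differed in culture format and medium as well as in cell state, and these cannot be told apart.

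A basement membrane is a thin sheet of matrix on the basal side of an epithelium. Laminins, each built from an alpha, a beta and a gamma chain, form 1 network on the cell surface and type IV collagens form another, and nidogens and heparan sulfate proteoglycans such as agrin tie the networks together. Cells hold on to the sheet through integrins, pairs of an alpha and a beta chain, and through dystroglycan. In the mouse embryo the epiblast rests on such a sheet, and extra-embryonic endoderm is known as a rich source of laminin and type IV collagen, parietal endoderm above all.

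Arrays of the same day hardly differed. Over all genes, which are no independent replicates, Pearson's r was 0.998 for the day 3 pair, 0.9975 for the day 0 pair and 0.9618 to 0.9619 across the days. All 5 epiblast markers were higher at day 3 (median log2 difference 3.87), led by Fgf5 (7.57), Cldn6 (4.56) and Pou3f1. At day 0 Fgf5 lay below the first quartile of the arrays, at 3.49 and 3.74, so the size of its rise is uncertain. Of 5 stem cell markers 4 were lower (median -2.72), led by Klf4 (-3.80), Esrrb (-3.04) and Nanog. The exception was Pou5f1, which encodes Oct4, at 12.58 and 12.70 at day 3 against 12.68 and 12.60 at day 0 on the log2 scale. Markers of visceral endoderm, an extra-embryonic tissue, were also higher in the tissue, with 11 of 12 called. Gata6 was not called (difference -0.25), at 9.32 and 9.60 at day 3 against 9.86 and 9.56 at day 0. These are bulk samples, in which fewer cells of a type and less RNA per cell cannot be told apart.

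Of the 22 matrix genes, 9 were called and 13 were not. Col4a1, Col4a2, Lamb1, Sparc and Lama1 were higher at day 3, while Nid1, Fn1, Lama3 and Agrn were lower. Of the 10 called receptors 8 were lower, with Itgb8 and Itgav higher and Itga1, Itga3, Itgb4, Dag1, Itga7, Itgb7, Itga5 and Itga6 lower. A gene was called where the limma test gave a Benjamini-Hochberg adjusted p under 0.05 over all 18194 genes. By this measure 19 of the 47 members (40.4%) were called, 7 higher and 12 lower, beside 42.3% of all genes. With each gene judged by its own spread alone, 4 members (Col4a2, Nid1, Fn1 and Dag1) were called. Far fewer of all genes were called in that test too, so the drop was not particular to the members. The share called in it was somewhat smaller among the members than among all genes. The share of called members in the shared fit was close to that of all genes. Members called with a difference of at least 2-fold were 4 higher and 3 lower of 47, beside 10.2% of all genes.

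The called matrix genes were thus 5 higher and 4 lower. Of the 25 receptor genes, 2 were higher, 8 lower and 15 not called, and without day 3 replicate 1 the lower receptors numbered 5. Among all genes 20.9% were called higher and 21.4% lower. The median log2 difference, day 3 minus day 0, was 0.07 for the matrix, -0.14 for the receptors and 0.01 for all genes. Both day 3 arrays lay on 1 side of both day 0 arrays for 14 matrix and 17 receptor genes, beside 69% of all genes. Bright genes were called more often, and 62.8% of the genes above the median level were called over all genes. At those levels stood 11 matrix genes, with 5 higher and 3 lower, and 7 receptor genes, with 1 higher and 3 lower, beside 29% of such genes called higher and 33.7% called lower. The difference between matrix and receptors was described by these counts and medians and was not tested.

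**Figure D1:**
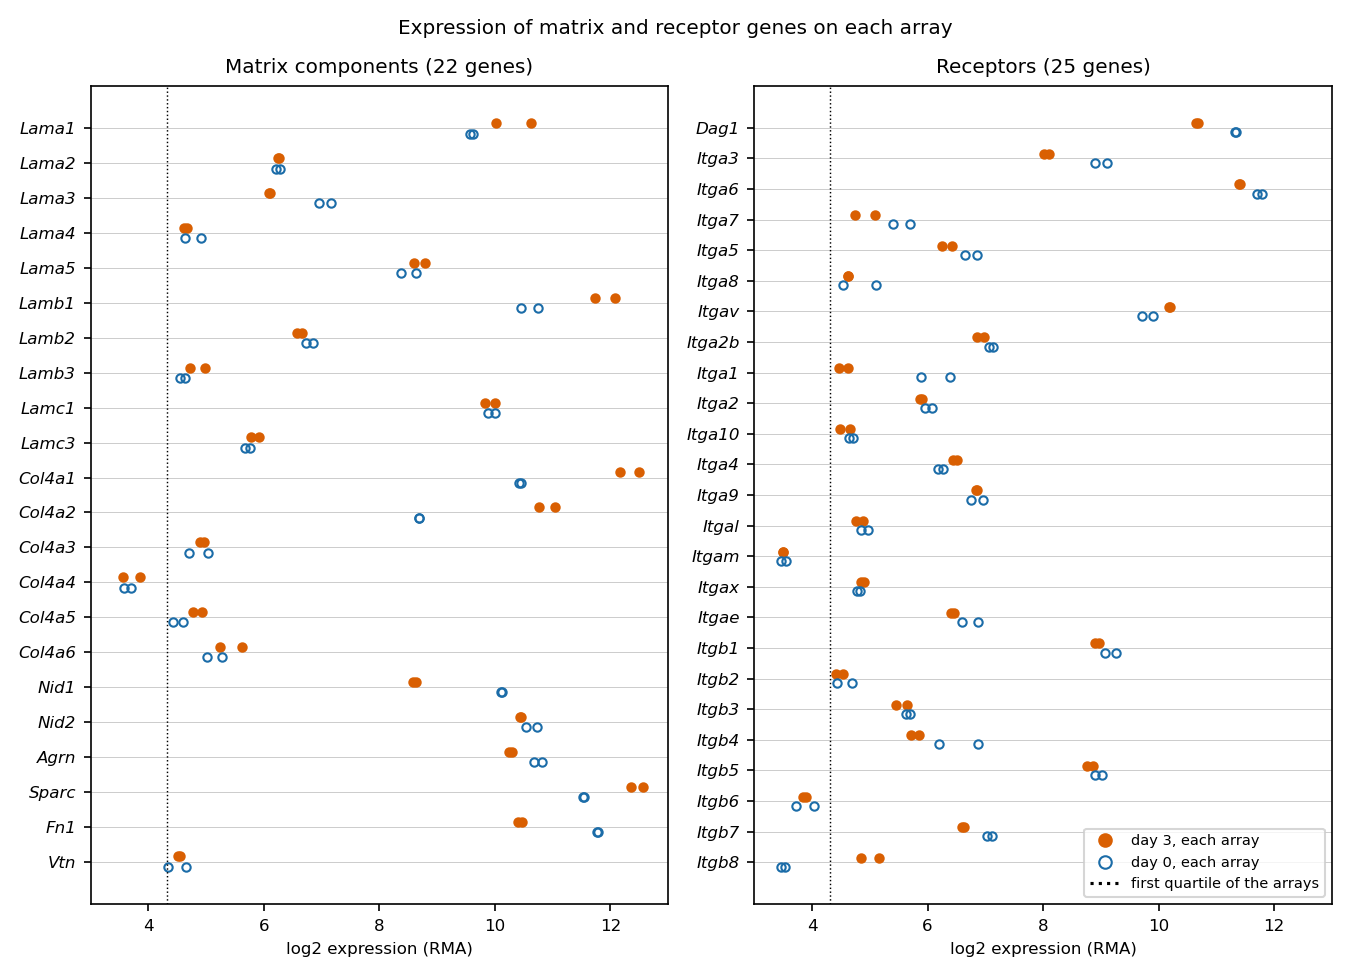
Log2 expression of the 22 matrix genes (left) and the 25 receptor genes (right) on each array, with filled points for day 3, open points for day 0 and a dotted line at the arrays' first quartile. Col4a1 and Col4a2 stand clearly to the right at day 3 and Nid1 and Fn1 clearly to the left, while many receptor genes lie in the lower part of the scale on both days.

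**Figure D2:**
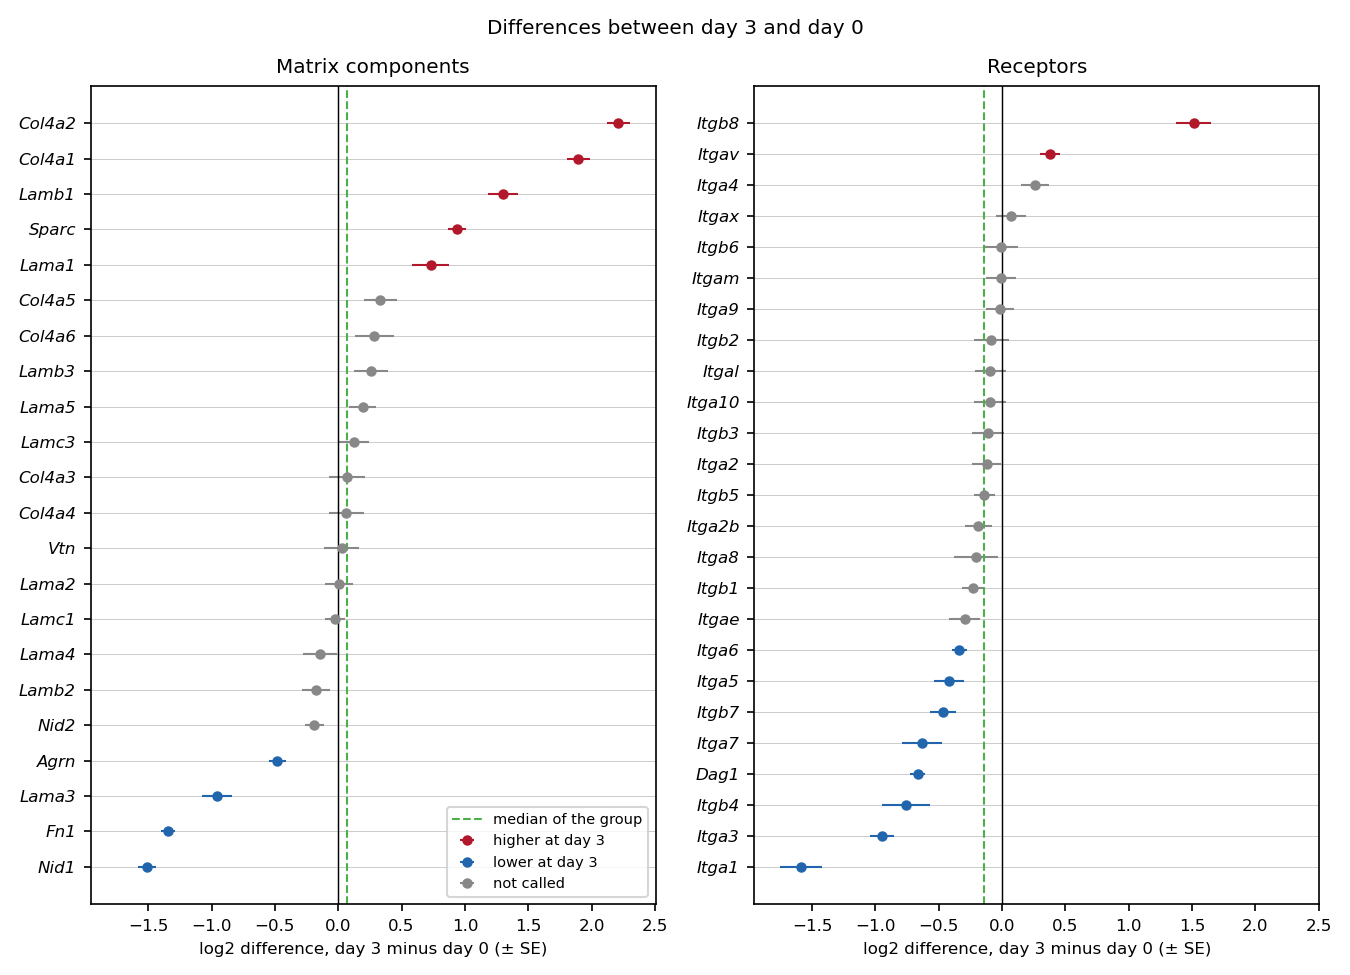
Log2 difference, day 3 minus day 0, with its standard error for each matrix gene (left) and receptor gene (right), ordered by size. Red marks genes called higher, blue genes called lower and grey genes not called, and the dashed line is the median of the group, 0.07 for the matrix and -0.14 for the receptors.

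Type IV collagen showed the largest rise among the members. Col4a1 and Col4a2 encode the chains of the collagen IV molecule found in nearly all basement membranes. Col4a1 was at 12.17 and 12.49 at day 3 against 10.42 and 10.45 at day 0 (log2 values). Col4a2 was at 10.76 and 11.04 at day 3 against 8.69 and 8.68 at day 0. For both genes the day 3 arrays lay far above the day 0 arrays. The log2 differences were 1.89 ± 0.09 (SE) for Col4a1, a 3.72-fold rise, and 2.21 ± 0.09 for Col4a2, a 4.63-fold rise (limma, adjusted p = 5.47e-08 and 2.08e-08). A second Col4a1 probe set rose by 2.08.

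The pair lie head to head on chromosome 8, and their start regions are shown because the genes that rose most among the members share them. In RefSeq (GRCm38.p6) the start sites used here lay 21 bases apart on opposite strands, so that the windows from 250 bases before to 50 bases after each start overlapped by 78 bases. The Col4a1 window was chr8:11312777-11313076 on the minus strand, and the Col4a2 window chr8:11312555-11312854 on the plus strand. Capitals mark the 78 bases held in common, which read as reverse complements of each other.
Col4a1: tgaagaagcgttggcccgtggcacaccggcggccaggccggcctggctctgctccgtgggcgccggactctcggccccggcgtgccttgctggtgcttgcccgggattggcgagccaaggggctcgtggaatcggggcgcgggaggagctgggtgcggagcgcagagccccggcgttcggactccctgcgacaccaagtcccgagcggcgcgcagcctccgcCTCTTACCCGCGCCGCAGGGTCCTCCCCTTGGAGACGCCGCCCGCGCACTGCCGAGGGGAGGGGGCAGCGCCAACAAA
Col4a2: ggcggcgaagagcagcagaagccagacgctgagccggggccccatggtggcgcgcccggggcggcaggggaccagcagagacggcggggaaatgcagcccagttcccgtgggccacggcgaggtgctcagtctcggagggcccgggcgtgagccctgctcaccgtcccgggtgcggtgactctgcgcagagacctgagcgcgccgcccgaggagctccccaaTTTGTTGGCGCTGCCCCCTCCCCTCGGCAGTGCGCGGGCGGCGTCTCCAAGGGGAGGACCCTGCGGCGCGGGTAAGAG

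The other collagen IV chains, which in the mouse form the specialised networks of kidney, lung and other tissues, were dim. Col4a3, Col4a4, Col4a5 and Col4a6 had day 3 means of 3.71 to 5.43 against 3.65 to 5.14 at day 0, and their differences of 0.06 to 0.33 were not called. Col4a4 was below the first quartile of every array (4.30 to 4.33), a range in which no detection call separates a level from background. Col4a5 depended on the probe set. The probe set that stood for the gene was at 4.93 and 4.77 at day 3 against 4.43 and 4.60 at day 0, without overlap. It missed the threshold, at 0.33 ± 0.13 (SE, limma adjusted p = 0.0658). The other was at 4.85 and 5.04 at day 3 against 3.06 and 2.71 at day 0. It rose by 2.06 (limma, adjusted p = 5.54e-06 across probe sets). Its day 0 level lay below the first quartile of the arrays, so the size of that rise is uncertain. From the mean of the gene's probe sets Col4a5 was called higher, by 1.20.

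Among the laminins, 2 chains rose and 1 fell, with 7 of 10 not called. Lamb1, the beta chain of the laminins of early embryos, was at 11.72 and 12.08 at day 3 against 10.75 and 10.45 at day 0. It rose by 1.30 ± 0.12 (SE), or 2.46-fold (limma, adjusted p = 6.41e-06), and all 4 of its probe sets were called higher. Lama1, the alpha chain of the first embryonic laminin, was at 10.02 and 10.62 at day 3 against 9.62 and 9.56 at day 0. The difference was 0.73 ± 0.15 (SE, limma adjusted p = 0.00227), and the day 3 arrays stood further apart than for any other matrix gene. Leaving out day 3 replicate 2 gave a difference of 0.43, and leaving out day 3 replicate 1 gave 1.03, both called.

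Lamc1, the gamma chain that pairs with both, did not follow them. It was at 9.83 and 10.00 at day 3 against 10.00 and 9.89 at day 0, with overlapping arrays and a difference of -0.03 ± 0.08 (SE, limma adjusted p = 0.832). Lama5, the alpha chain of the laminin that is widespread in later epithelia, was at 8.79 and 8.60 against 8.64 and 8.37 at day 0. Its arrays overlapped too, and the difference of 0.19 ± 0.11 was not called (limma, adjusted p = 0.196), although without day 0 replicate 1 it was 0.33 and was called (adjusted p = 0.0157). Lama3, an alpha chain of the laminin under stratified epithelia, fell to 6.09 and 6.11 at day 3, against 6.95 and 7.17 at day 0. The fall of 0.96 ± 0.12 (SE, limma adjusted p = 6.42e-05) came from 1 of its 2 probe sets, the other differing by -0.04, and the mean of both differed by -0.50. The remaining chains, Lama2, Lama4, Lamb2, Lamb3 and Lamc3, differed by -0.18 to 0.26 and were not called.

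Nid1 was lower at day 3. Nidogens are glycoproteins that bind laminin and type IV collagen. Nid1 was at 8.58 and 8.64 at day 3 against 10.12 and 10.11 at day 0, with no overlap and little spread within either day. It was 2.85-fold lower, a log2 difference of -1.51 ± 0.07 (SE, limma adjusted p = 5.14e-08), and 2 of its 3 probe sets were called lower, with a mean over all 3 of -0.98. Its relative Nid2 was at 10.45 and 10.44 against 10.73 and 10.53 at day 0, and the difference of -0.19 ± 0.07 was not called (limma, adjusted p = 0.0671). Without day 0 replicate 2 it was -0.29 and was called (adjusted p = 0.00466). Agrn, encoding agrin, a heparan sulfate proteoglycan that binds laminin and dystroglycan, was at 10.29 and 10.24 at day 3 against 10.81 and 10.68 at day 0. It fell by 0.48 ± 0.07 (SE, limma adjusted p = 0.000182), but a dimmer probe set differed by 0.31 in the other direction, and from the mean of both the gene was at -0.09 and not called.

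Fibronectin, a matrix glycoprotein that cells bind mainly through its RGD tripeptide, fell. Fn1 was at 10.46 and 10.40 at day 3 against 11.79 and 11.76 at day 0. The gene was 2.54-fold lower, with a log2 difference of -1.34 ± 0.06 (SE, limma adjusted p = 2.79e-08), and a second probe set fell by 2.15. Vtn, encoding vitronectin, an adhesive protein of plasma, stayed near the first quartile of the arrays, at 4.55 and 4.51 against 4.66 and 4.34 at day 0 (difference 0.03 ± 0.14, SE, limma adjusted p = 0.904). Sparc, a secreted collagen-binding glycoprotein abundant in parietal endoderm, rose. It was at 12.36 and 12.57 at day 3 against 11.52 and 11.53 at day 0, a difference of 0.94 ± 0.07 (SE, limma adjusted p = 1.33e-06) or 1.92-fold. A second Sparc probe set rose by 0.96, while another, dimmer one differed by -0.0018.

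The start regions of Lamb1 and Sparc, which rose, and of Nid1, which fell, are set side by side to show what their sequences share. They lay at chr12:31265043-31265342 (plus strand), chr11:55420031-55420330 (minus strand) and chr13:13437352-13437651 (plus strand) of GRCm38.p6 (RefSeq). Capitals mark matches on either strand to CCAAT (the CCAAT box), GGGCGG (the GC box, a binding motif of Sp1) or TATAAA (the TATA box).
Lamb1: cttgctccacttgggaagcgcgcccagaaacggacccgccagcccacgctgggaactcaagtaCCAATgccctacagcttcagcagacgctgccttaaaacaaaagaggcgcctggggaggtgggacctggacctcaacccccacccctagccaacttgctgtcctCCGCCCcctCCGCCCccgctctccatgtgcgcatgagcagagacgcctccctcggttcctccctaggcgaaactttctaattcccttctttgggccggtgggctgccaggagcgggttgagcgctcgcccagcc
Sparc: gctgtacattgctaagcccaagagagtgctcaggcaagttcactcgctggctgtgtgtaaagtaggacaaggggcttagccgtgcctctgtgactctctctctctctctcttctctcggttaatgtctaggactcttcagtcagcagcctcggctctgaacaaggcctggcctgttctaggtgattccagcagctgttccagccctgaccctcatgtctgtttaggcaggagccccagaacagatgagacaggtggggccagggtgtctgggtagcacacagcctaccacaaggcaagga
Nid1: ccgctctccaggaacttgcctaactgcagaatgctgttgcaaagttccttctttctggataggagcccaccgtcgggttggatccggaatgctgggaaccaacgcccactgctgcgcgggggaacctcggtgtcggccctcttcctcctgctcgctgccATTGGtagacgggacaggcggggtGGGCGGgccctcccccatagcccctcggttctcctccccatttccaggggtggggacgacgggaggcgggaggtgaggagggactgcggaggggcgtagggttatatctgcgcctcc

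Lamb1 held 1 CCAAT and 2 GC boxes and Nid1 held 1 of each, so that a gene that rose and a gene that fell carried the same motifs. Sparc held none of these letters in its window. Col4a1 held 1 CCAAT and 1 GC box, and Col4a2 held 1 CCAAT and 3 GC boxes, with no TATAAA in any of the 5 windows. CCAAT stood in 37.4% of all 32851 windows of this length and in 10 of 37 windows of 32 members. GGGCGG stood in 35.7% and in 21 of 37, and TATAAA in 13.6% and in 1 of 37. Any member window on chromosome 18, where Lama3 lies, was left out of the 37. The 32851 windows were not restricted by chromosome, and the 37 were not restricted by length. The motifs did not overlap each other in the windows shown. Such matches describe the sequence only.

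Among the receptors, Itga3, Itga6 and Itga7 encode the integrin alpha chains grouped here as laminin-binding, and all 3 were lower at day 3. The beta chain gene Itgb1 was not called (limma, adjusted p = 0.0519). Itga6, whose protein pairs with the Itgb1 or Itgb4 chain, was at 11.41 and 11.39 at day 3 against 11.79 and 11.70 at day 0. The fall of 0.34 ± 0.06 (SE, limma adjusted p = 0.000688) was small but was seen in both of its probe sets. Itga3 was at 8.10 and 8.01 at day 3 against 8.89 and 9.11 at day 0, lower by 1.93-fold, with a log2 difference of -0.95 ± 0.09 (SE, limma adjusted p = 1.42e-05). Of its 3 probe sets 2 were called lower, and their mean over all 3 differed by -0.50. Itga7, known from muscle, was dim, at 4.75 and 5.08 against 5.39 and 5.70 at day 0, and its difference of -0.63 lost its call without day 3 replicate 1 (-0.46, adjusted p = 0.106).

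Dag1 encodes both subunits of dystroglycan, a laminin and agrin receptor outside the integrin family. It was at 10.68 and 10.64 at day 3 against 11.32 and 11.34 at day 0. The gene fell by 0.67 ± 0.06 (SE, limma adjusted p = 4.91e-06), and all 4 of its probe sets were called lower, by 0.62 to 0.80.

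Alpha chains that recognise RGD went different ways. Itgav, which pairs with several beta chains and binds vitronectin and fibronectin, was at 10.20 and 10.18 at day 3 against 9.90 and 9.72 at day 0. The brightest of its 5 probe sets rose by 0.38 ± 0.08 (SE, limma adjusted p = 0.0021), while the other 4 differed by -0.20 to 0.19 and were not called. Their mean over all 5 was 0.03 and not called. Itga5, the alpha chain of the main fibronectin receptor, was at 6.25 and 6.42 at day 3 against 6.65 and 6.85 at day 0. It fell by 0.42 ± 0.12 (SE, limma adjusted p = 0.0175), with 2 of 4 probe sets called. The call was lost without day 0 replicate 2 (-0.32, adjusted p = 0.0893), without day 3 replicate 1 (-0.33, adjusted p = 0.159) and from the mean of its probe sets (-0.25). Itga8 differed by -0.21 and Itga2b, the platelet chain, by -0.19, and neither was called. Without day 0 replicate 2 Itga8 was at -0.49 and called lower (limma, adjusted p = 0.0169).

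Itga1, a collagen-binding alpha chain, fell by its brighter probe set. It was at 4.62 and 4.47 at day 3 against 6.38 and 5.89 at day 0, 3.01-fold lower, with a log2 difference of -1.59 ± 0.16 (SE, limma adjusted p = 1.85e-05). At day 3 this level was close to the first quartile of the arrays. A second, dimmer probe set differed by -0.06, and the mean of both by -0.83. The other collagen-binding chains, Itga2 and Itga10, differed by -0.12 and -0.10 and were not called. Neither Itga4 (0.26) nor Itga9 (-0.02) was called.

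The beta chains centre on Itgb1, the partner of most alpha chains above. It was at 8.96 and 8.90 at day 3 against 9.07 and 9.26 at day 0, a difference of -0.23 ± 0.09 (SE, limma adjusted p = 0.0519) just outside the threshold. The difference was called without day 0 replicate 1 (-0.33, adjusted p = 0.00693), with the arrays centred on their medians and among bright genes alone, whereas none of its 6 probe sets was called over all probe sets, and another bright one differed by 0.05. Itgb8, whose protein pairs with the Itgav chain, rose to 5.16 and 4.86 at day 3, against 3.54 and 3.46 at day 0. The rise of 1.51 ± 0.14 (SE, limma adjusted p = 7.24e-06) rested on the gene's only probe set. Its day 0 level lay below the arrays' first quartile, where a level cannot be told from background, so the size of the rise is uncertain.

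Itgb4, the partner of the Itga6 chain in hemidesmosomes, was at 5.71 and 5.85 at day 3 against 6.88 and 6.20 at day 0. Its difference of -0.76 ± 0.19 (SE, limma adjusted p = 0.00761) was -0.42 without day 0 replicate 1, which stood above the rest. The call was lost without day 3 replicate 1 (adjusted p = 0.115) or day 3 replicate 2 (adjusted p = 0.065). Itgb7 fell by 0.46 ± 0.10 (SE, limma adjusted p = 0.00411) by its only probe set. Itgb5, which pairs with the Itgav chain, was at 8.77 and 8.86 against 9.02 and 8.89 at day 0 and was not called (difference -0.14). Itgb2, Itgb3 and Itgb6 differed by -0.11 to -0.01 and were not called, but a second Itgb3 probe set fell by 0.65 and the mean of its probe sets by 0.38, both called (limma).

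None of the leukocyte integrin chains was called. Itgal, Itgam, Itgax and Itgae differed by -0.30 to 0.07, Itgam lying below the first quartile of every array. Itgae was called lower without day 0 replicate 1 (-0.44, limma adjusted p = 0.0135). A second Itgal probe set was at 4.38 and 4.44 at day 3 against 5.05 and 5.48 at day 0 and was called lower, as was the mean of the gene's probe sets (-0.47, limma adjusted p = 0.0119). Of 7 leukocyte and platelet markers 1 was called (14.3%, beside 42.3% of all genes). It was Cd68, a lysosomal protein gene, which fell by 1.29 ± 0.13. The marker Ptprc, which encodes the leukocyte antigen CD45, lay below the first quartile on all arrays, at 3.71 and 3.63 against 3.56 and 3.48 at day 0.

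Several members had more than 1 probe set, which gave a second reading of the same samples. Of the 19 called members, 13 had several probe sets. A second one was called the same way in 9, every one in 5 (Col4a1, Lamb1, Fn1, Dag1 and Itga6), and only 1 in 4 (Lama3, Agrn, Itgav and Itga1). No called member had a probe set called in the other direction. Of 18 members not called, 3 had another probe set that was called (Col4a5, Itgal and Itgb3).

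**Figure D3:**
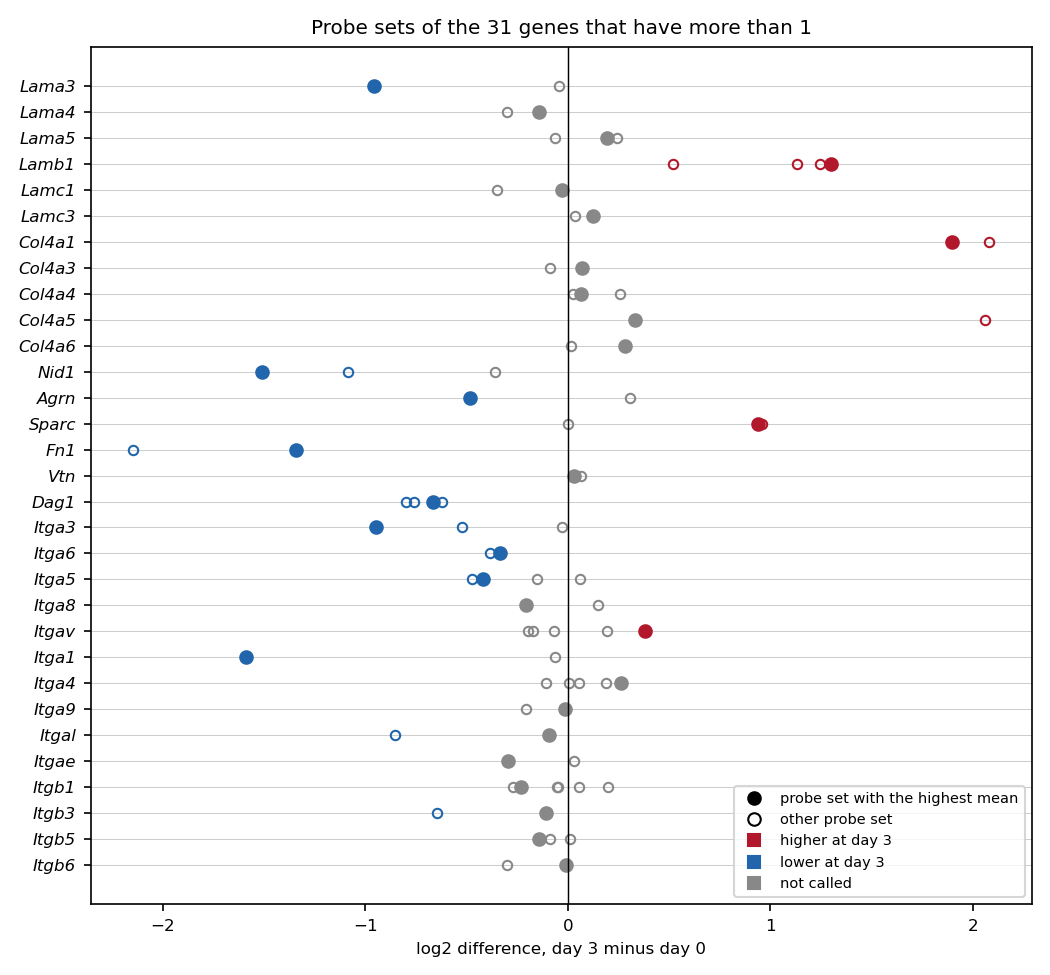
Log2 difference, day 3 minus day 0, of every probe set of the 31 members that have several, with filled points for the probe set with the highest mean and open points for the others. Colour gives the call over all probe sets. The probe sets of Lamb1, Col4a1, Fn1, Dag1 and Itga6 fall on the same side, while those of Col4a5, Agrn and Itgav lie apart.

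The rising matrix genes also differed between the day 3 arrays. For all 5 of them day 3 replicate 2 stood above day 3 replicate 1, by 0.20 (Sparc) to 0.60 (Lama1) on the log2 scale, with a median of 0.32. Over all genes the median of this gap was 0.01, the central 90% lay between -0.26 and 0.27, and 9593 of 18194 genes were above 0. Between the day 0 arrays the same 5 genes had a median gap of -0.01, with 2 of 5 above 0 and Lamb1 at -0.29. The gap was positive too in 13 of 15 genes for folding and crosslinking of type IV collagen (median 0.17) and in 12 of 16 for matrix proteases and inhibitors (median 0.12). Markers of parietal endoderm showed the same direction in 7 of 7, with Plat, a plasminogen activator gene, higher by 0.69 and Pth1r, the parathyroid hormone receptor gene, by 0.61. The gap was positive in 8 of 12 visceral endoderm markers (median 0.07) and in 0 of 5 epiblast markers (median -0.14). Other matrix genes did not share the direction. The gap was positive in 10 of 20 other basement membrane proteins (median -0.0041) and in 4 of the 13 matrix genes not called (median -0.05). The 4 falling matrix genes had gaps of -0.06 to 0.06. The pattern was noticed in these data, rests on 1 pair of arrays, and its part in the differences between days was not tested.

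**Figure D4:**
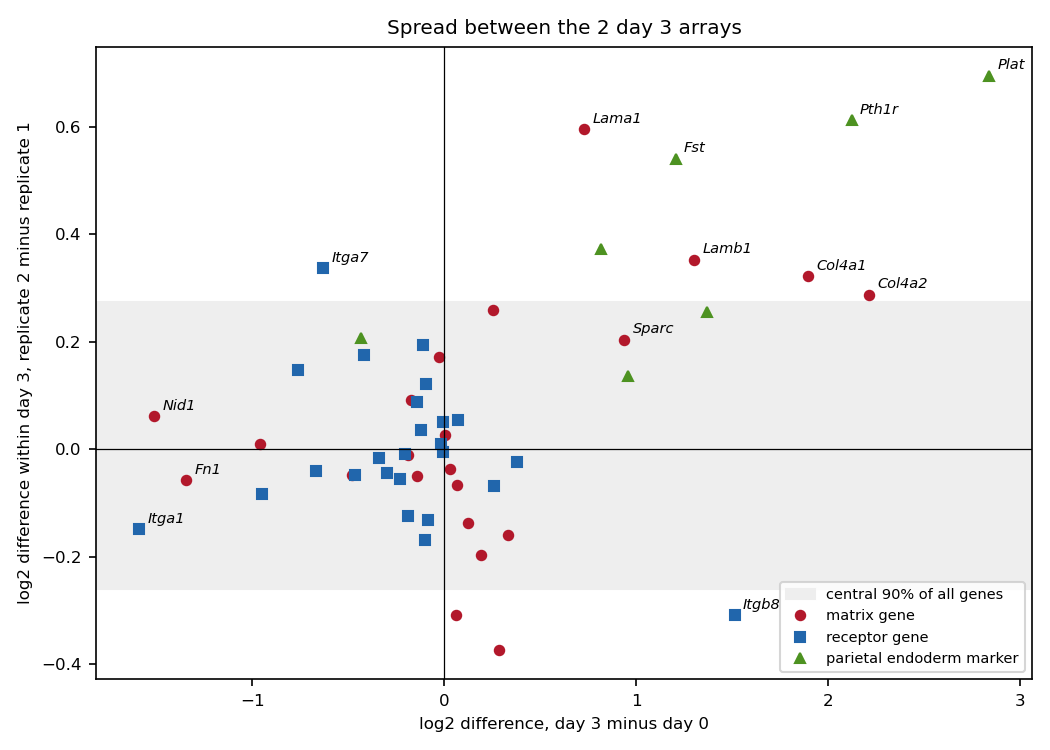
Difference between the day 3 arrays, replicate 2 minus replicate 1, against the log2 difference of day 3 minus day 0, for matrix genes (circles), receptor genes (squares) and parietal endoderm markers (triangles). The grey band holds the central 90% of all genes, from -0.26 to 0.27. Lama1, Lamb1, Col4a1 and Col4a2 lie above it together with Plat, Pth1r, Fst and 1 more endoderm marker, and Itga7 is the highest receptor gene.

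Endoderm markers rose between the days as well. Of 7 parietal endoderm markers 6 were higher and 1, Thbd, was lower at day 3, with a median difference of 1.21 and mean levels of 7.42 and 7.82 at day 3 against 6.37 and 6.33 at day 0. Plat rose by 2.84 ± 0.22 (SE), Pth1r by 2.12 ± 0.17 and Sox7, an endoderm transcription factor gene, by 1.37 ± 0.10. Thbd, encoding thrombomodulin, another gene of that tissue, was at 3.88 and 4.09 against 4.59 and 4.25 at day 0. Visceral endoderm markers had mean levels of 10.06 and 10.16 at day 3 against 7.22 and 7.12 at day 0, and the transport and uptake genes Apob, Cubn and Ttr rose most, by 6.79, 5.86 and 4.32. None of these 19 markers was below the first quartile on all arrays. Thbd, however, was below it on both day 3 arrays and on day 0 replicate 2. Apob was near it at day 0 (4.28 and 4.44), so the sizes of these differences are uncertain. Of 8 fibroblast markers 3 were higher (Thy1, by 1.82, Dcn, by 0.96, and Col1a2, by 0.49) and 3 were below the first quartile on every array. Of 5 endothelial markers 2 were lower, namely Pecam1, which fell by 2.62, and Tek, which fell by 0.70. The shares called, 37.5% for fibroblast and 40% for endothelial markers, were near the 42.3% of all genes. They were 100% for parietal and 91.7% for visceral endoderm markers. The part of these cell types in the rise of the matrix genes was not tested.

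Of 15 genes listed for the folding and crosslinking of type IV collagen, 7 were higher at day 3, 4 were lower and 4 were not called. The share called in either direction was 73.3%, beside 42.3% of all genes and 62.8% of those above the median level. Pxdn, encoding peroxidasin, which forms the sulfilimine crosslinks of collagen IV, was at 10.17 and 10.11 at day 3 against 7.34 and 7.02 at day 0 and rose by 2.96 ± 0.11 (SE). The prolyl hydroxylase genes P3h2 and P4ha1 rose by 2.02 and 1.65. Serpinh1, the collagen chaperone Hsp47, rose by 1.14 and Plod2, a lysyl hydroxylase gene, by 1.07. The list's median difference was 0.15, and 5 genes rose and 1, Tmem38b (-1.35), fell by at least 2-fold. Not every listed gene encodes an enzyme or chaperone.

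Other basement membrane proteins were higher for 8 of 20, lower for 2 and not called for 10, with a median of 0.20, and the 50% called lay near the 42.3% of all genes. The largest rises were those of Frem2, a protein of the epithelial basement membrane, at 1.75 ± 0.24 (SE), Efemp1, a fibulin gene, at 1.64 ± 0.12 and Ntn1, encoding the laminin-related netrin 1, at 1.61 ± 0.13. At day 0 Efemp1 lay below the first quartile of the arrays, at 3.52 and 3.66, so the size of its rise is uncertain. Hspg2, the gene of perlecan, was at 9.13 and 8.88 at day 3 against 9.01 and 9.07 at day 0, overlapping and not called. Among matrix proteases and their inhibitors 7 of 16 were higher and 4 lower, beside 20.9% and 21.4% of all genes. Besides Plat, the inhibitor gene Timp3 rose by 2.49 ± 0.13 and the collagenase gene Mmp2 by 1.79 ± 0.12.

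Inside the cell, the adaptors of integrin adhesions were lower for 10 of 20, higher for 4 and not called for 6, with a median of -0.25. That made 70% called, beside 42.3% of all genes and 62.8% of those above the median level. Parvb, an actin-binding adaptor, fell by 1.99 ± 0.08 (SE), Tns3, a tensin, by 1.76 ± 0.07 and Tln1, encoding talin, which activates integrins, by 1.30 ± 0.09. The 4 that rose were Zyx (0.92), Parva (0.65), Lims1 (0.55) and Ilk (0.54). Parvb and Lims2 (-0.33), the relatives of Parva and Lims1, were called lower. Genes of the dystroglycan complex and its glycosylation split evenly, with 4 higher, 4 lower and 7 not called of 15 (median 0.03, 53.3% called beside 42.3% of all genes). Sntb2, a syntrophin gene, fell by 1.86 ± 0.09 (SE) and Pomt1, a mannosyltransferase gene, by 0.68 ± 0.10, while Dtnb, a dystrobrevin gene, rose by 0.92 ± 0.08. Membrane proteins that associate with integrins were higher for 6 of 13 and lower for 2, with a median of 0.20. The share called was 61.5%, beside 42.3% of all genes and 62.8% of those above the median level. Cd44, a hyaluronan receptor gene, rose by 2.55 ± 0.14 (SE) and Cd47 by 1.63 ± 0.09, and the tetraspanin gene Cd37 fell by 3.20 ± 0.11. The day 0 values of Cd44, 3.64 and 3.36, lay below the first quartile of the arrays, so the size of its rise is uncertain.

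**Figure D5:**
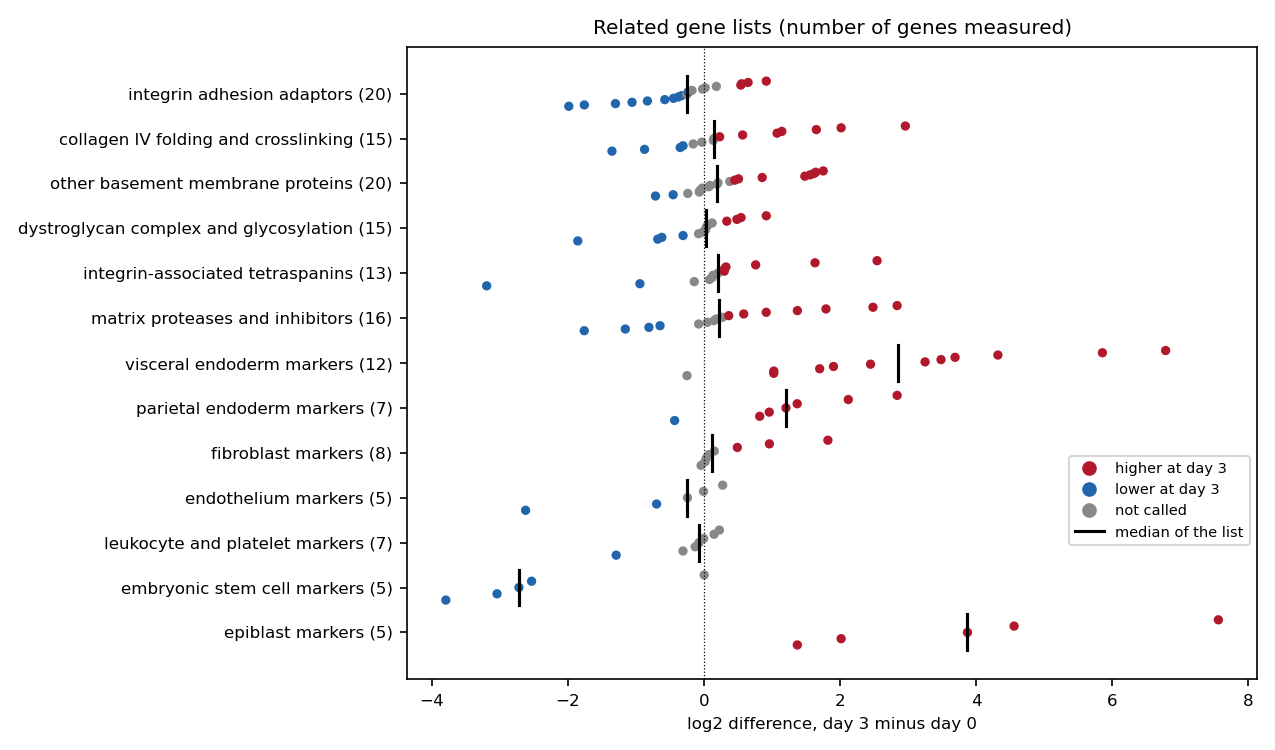
Log2 difference, day 3 minus day 0, of each measured gene in 13 related lists, with the number of genes in brackets, the call in colour and a black bar at the list's median. Visceral and parietal endoderm markers lie mostly to the right of 0 (medians 2.85 and 1.21) and integrin adhesion adaptors mostly to the left (median -0.25).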

How the data were processed

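The deposited table held log2 expression values, 1 per probe set and array, which the authors made with RMA in R 2.13.0, per the submitters' processing notes. The sources used here do not give its further settings. RMA makes the distributions of the arrays nearly alike, which hides a change in RNA content per cell, and it shrinks differences where probe sets are dim.

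Of 45101 probe sets, 34958 had 1 gene symbol in the platform annotation, 932 had several and 9211 none. The 18194 genes were fitted together with limma 3.58.1 in R 4.3.3. The linear model (lmFit) left 2 residual degrees of freedom, and moderation by eBayes, with the prior variance following intensity, added 8.02. Tests were two-sided, with Benjamini-Hochberg adjustment, a threshold of 0.05 and no covariate. The procedure was tested on simulated data.

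Members and lists were chosen with earlier results of these data known. Values for each array are given for members called with at least a 2-fold difference and for preset members (Col4a1, Col4a2, Lama1, Lama5, Lamb1, Lamc1, Nid1, Sparc, Fn1, Vtn, Agrn, Itgb1, Itga3, Itga5, Itga6, Itgav and Dag1), and of each list the 3 called genes with the largest differences are named. Other list genes were picked once their values were known. Chromosomes and promoter windows come from RefSeq. The number of arrays limits the precision. The alternatives were other variance fits, scalings, filters, probe set rules and thresholds, the replicate number as a block, and each array left out in turn.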

Additional observations from a re-analysis of the deposited data

How the results depend on the processing

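The replicate numbers named no shared culture, and same-numbered samples did not deviate together (correlation -0.0167). With the replicate number as a block (replicate block) 19 members were called, as without it, and no member's call changed. An unmoderated test per gene called 4 members (1 higher, 3 lower), 3 of them matrix (1 and 2) and 1 a receptor (0 and 1). Those 4 were Col4a2, Nid1, Fn1 and Dag1. Over all genes the unmoderated test likewise called far fewer than the moderated one, though a somewhat larger share than among the members. Against a log2 difference of 1, limma's treat called 6 (3 higher, 3 lower), 4 in the matrix (2 and 2) and 2 receptors (1 and 1). For the 18 members above the median level, tested among such genes alone, the lower members numbered 7. Of 7 receptors there 5 were called, 1 higher and 4 lower. The matrix median was 0.19, as it covered only the 11 matrix genes at those levels. Averaging a gene's probe sets left 1 receptor higher. With 1 array left out, 16 to 22 members were called, the lower receptors numbered 5 to 10, and the medians ranged from 0.05 to 0.16 for the matrix and from -0.19 to -0.15 for the receptors.

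No called member changed sign. Some members not called did. Lama2 was at -0.0093 after renewed quantile normalization and -0.0032 after median centring, Lamc1 at 0.0157 after quantile normalization, and Col4a3 at -0.0111 from the mean of its probe sets. With 1 array left out, Lama2 ranged from -0.0288 to 0.0403, Lamc1 from -0.1133 to 0.0579, Col4a3 from -0.0967 to 0.2317, Col4a4 from -0.091 to 0.2176, Vtn from -0.1295 to 0.1864, Itga8 from -0.4901 to 0.0785, Itga9 from -0.1166 to 0.084, Itgam from -0.0511 to 0.0339, Itgb2 from -0.2158 to 0.048 and Itgb6 from -0.1597 to 0.1441. The cause was not tested. Dim probe sets limit what could be seen for the rarer chains.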
